A study of Homo sapiens with 12 samples.

Results

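A set of 10 cell-surface receptors associated with drug resistance in melanoma was followed in the melanoma line A375 with and without added MIR211. The 10 genes were taken by name (AXL, EGFR, PDGFRB, MET, ERBB3, KDR, NRP1, FGFR1, KIT and EPHA2) out of 60675 gene IDs in the deposited count tables. All 10 have a row in both tables, 9 had counts and passed the filter on low counts in each assay, and KIT had a count of 0 in all 12 libraries. A375/211 overexpresses MIR211, which encodes miR-211. It was set against A375, the human melanoma line it was made from, which has an activating BRAF mutation. Both lines were grown in the same medium, and the labels give no vector control, no promoter for MIR211 and no statement on whether A375/211 is a clone. RNA-seq of total RNA had 2 libraries per line, a and b. BRIC-seq marks new RNA with 5-bromouridine (BrU), stops the marking and captures the marked RNA as it disappears. It had 1 library per line at 0, 1, 3 and 6 h after 24 h of labelling.

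Receptor tyrosine kinases span the plasma membrane, pair up when a ligand binds outside the cell and phosphorylate tyrosines inside it, which recruits adaptors that feed the RAS-ERK and PI3K-AKT pathways. In BRAF-mutant melanoma, raised levels of some of these receptors can restore those signals when BRAF or MEK is inhibited, and high AXL with low MITF marks a dedifferentiated, drug-tolerant state. AXL is the receptor for GAS6, and MET is the receptor for HGF. EGFR and ERBB3 belong to the ERBB family, in which ERBB3 binds neuregulins but has an impaired kinase and signals through its partners. PDGFRB, KDR (VEGF receptor), FGFR1 and KIT (receptor for stem cell factor, needed by melanocytes) bind growth factors, and EPHA2 binds ephrin-A ligands on neighbouring cells. NRP1 is a co-receptor for semaphorins and VEGF and has no kinase domain, so the set is wider than kinases in the strict sense.

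MicroRNAs pair through their seed, bases 2 to 8, with matches in 3′ UTRs, so the seed of miR-211 and the receptor UTR windows that match it are shown first. The sequence of the microRNA is from RefSeq (GRCh38.p14, chr15:31065095-31065116, minus strand), with the seed in capitals. The same seed is carried by hsa-miR-204-5p.
hsa-miR-211-5p: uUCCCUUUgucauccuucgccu
The letters searched in 3′ UTRs of 19228 canonical GENCODE 44 transcripts (hg38, sense strand only) were AAAGGGA (a 7mer-m8 match, or an 8mer when followed by A) and AAGGGAA (a 7mer-A1 match, counted once where it lies within an 8mer). Of the 10 receptors 3 held a match, against 25.55% of all these UTRs, and 2 held a 7mer-m8 or 8mer match, against 17.33%. These shares do not allow for UTR length. Among UTRs of a length similar to the receptor's, the share with a match ran from 16.0% for EPHA2 to 68.81% for EGFR. It was 25.15% for ERBB3, 32.58% for PDGFRB and 43.23% for NRP1. ERBB3 had 3 matches, PDGFRB 2 and NRP1 2. The windows are given with the match in capitals.
PDGFRB, 7mer-m8, chr5:150114449-150114472, minus strand: tcctgggcaAAAGGGAcaaagagg
PDGFRB, 7mer-A1, chr5:150113867-150113890, minus strand: cttttttttAAGGGAAagatttta
ERBB3, 7mer-m8, chr12:56102434-56102457, plus strand: aagaagaggAAAGGGAggaaacct
ERBB3, 8mer, chr12:56102671-56102695, plus strand: attttacacAAAGGGAAgtcgggca
ERBB3, 7mer-A1, chr12:56103414-56103437, plus strand: tggggaactAAGGGAAaacgtctg
NRP1, 7mer-A1, chr10:33178871-33178894, minus strand: taaataaatAAGGGAAattcctaa
NRP1, 7mer-A1, chr10:33178576-33178599, minus strand: gagtcacacAAGGGAAgtggaagg
A match describes letters and does not show binding, and mature miR-211 was not measured in these libraries.

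RNA-seq depth was 30.5 to 34.1 M counts per A375/211 library and 20.8 to 28.4 M per A375 library, and BRIC-seq depth was 2.78 to 6.66 M per A375/211 library and 2.67 to 7.28 M per A375 library, with more counts at the later times. The A375/211 libraries had 36 and 18 counts of MIR211 in RNA-seq and 9, 11, 2 and 3 over the chase, and every A375 library had 0, so the labels hold for this gene. The 9 markers of the melanocyte lineage summed to 470 to 494 library-scaled counts (CPM, a count divided by the TMM-scaled library size in M) in A375/211 and 503 to 522 CPM in A375 in RNA-seq. Among the 7 of them tested, edgeR called 1, MITF, which fell, 5 had an unadjusted p under 0.05 and DESeq2 called 4. Over all 19258 genes tested edgeR called 0.379%, 2107 genes had an unadjusted p under 0.05 and DESeq2 called 3.88%. The markers did not move one way: MITF averaged 43.9 CPM in A375/211 and 248 CPM in A375, S100B 97.3 CPM in A375/211 and 30.8 CPM in A375, EDNRB 78.1 CPM in A375/211 and 23.6 CPM in A375, and SOX10 219 CPM in A375/211 and 149 CPM in A375. In BRIC-seq with chase times matched, edgeR called 3 of the 7 melanocyte markers tested, where 13.6% of all genes rose and 12.3% fell. DCT rose by 2.05 and PMEL by 2.56 on the log2 scale, SOX10 fell by 1.49, and MITF was not called. PMEL averaged 3.71 CPM in A375/211 and 10.6 CPM in A375 in RNA-seq. Endothelial markers in RNA-seq summed to 0.906 to 4.24 CPM in A375/211 and 0.418 to 1.13 CPM in A375, PECAM1, CDH5, EMCN and CLDN5 had no counts in any of the 4 RNA-seq libraries, and TIE1 had 108 counts in A375/211 and 0 in A375. All values are from bulk RNA, in which fewer cells that express a gene and less RNA per cell cannot be told apart.

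Steady-state levels per kilobase of exon placed AXL first in A375/211 and ERBB3 first in A375 (plot of per-length levels). In A375/211 the order was AXL at 41.9 ± 7.81 CPM per kb (SD, n = 2 libraries), EPHA2 at 29.5 ± 0.425, ERBB3 at 24.3 ± 1.69, MET at 18.0 ± 3.63, NRP1 at 4.57 ± 0.474, PDGFRB at 1.74 ± 0.108, KDR at 1.10 ± 0.472, FGFR1 at 0.714 ± 0.201 and EGFR at 0.581 ± 0.0563 CPM per kb. In A375 the order was ERBB3 at 19.7 ± 6.74 CPM per kb, AXL at 16.7 ± 6.36, MET at 15.4 ± 4.67, EPHA2 at 10.9 ± 0.708, NRP1 at 3.87 ± 1.84, FGFR1 at 1.36 ± 0.365, PDGFRB at 0.637 ± 0.0238, KDR at 0.532 ± 0.00762 and EGFR at 0.515 ± 0.170 CPM per kb. With the longest transcript as the length, AXL, MET and NRP1 kept their place in both lines, and in A375/211 ERBB3 stood at 45.5 CPM per kb beside AXL at 45.6 and EPHA2 at 30.9, with NRP1 at 8.96 and FGFR1 at 1.98. Neighbours in the exon-length order whose libraries overlapped were KDR with FGFR1 and FGFR1 with EGFR in A375/211, and ERBB3 with AXL, AXL with MET and KDR with EGFR in A375. The top 4 receptors were the same genes in both lines, and each stood above NRP1 in every library. KIT stood at 0, where a floor of 3 counts corresponds to 0.0884 to 0.147 CPM in the RNA-seq libraries and 0.414 to 0.883 CPM in the BRIC-seq libraries.

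**Figure D1:**
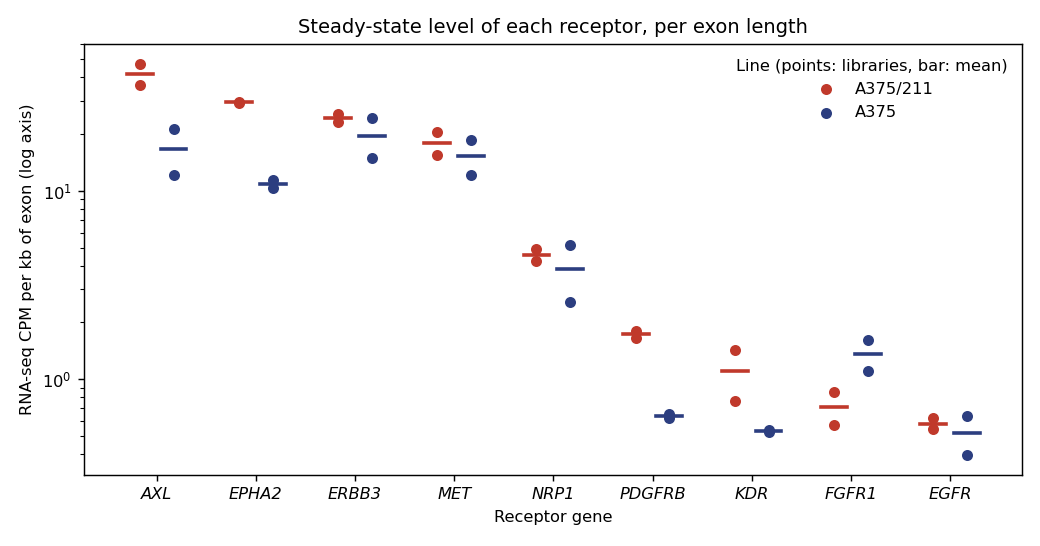
RNA-seq level of 9 receptors in CPM per kb of exon (log axis), with 1 point per library and a bar at the mean of each line, A375/211 in red and A375 in blue. AXL at 41.9, EPHA2 at 29.5, PDGFRB at 1.74 and KDR at 1.10 CPM per kb stood above the A375 libraries in both A375/211 libraries, FGFR1 stood below, and the lines overlapped for ERBB3, MET, NRP1 and EGFR.

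In steady-state RNA, AXL, EPHA2 and PDGFRB were 2.51 to 2.72 times as abundant in A375/211 as in A375, but no receptor passed edgeR's quasi-likelihood test after adjustment over all genes. By that test 0 of the 9 receptors were called, where 0.379% of all 19258 genes tested were, and 5 of the 9 (AXL, PDGFRB, KDR, FGFR1 and EPHA2) had an unadjusted p under 0.05, as did 2107 of the 19258 genes. DESeq2 called 3 receptors, AXL, PDGFRB and EPHA2, all higher in A375/211, where it called 3.88% of all genes. The log2 difference was above 0 for 8 of the 9 receptors with a median of 0.31, against 49.6% of all genes and a median of -0.00346. The residual degrees of freedom were 2, and edgeR called 0 to 15 genes in the whole table when 1 library was left out.

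AXL (ENSG00000167601, chromosome 19, 41219223 to 41261766, plus strand, hg38) had 187 and 244 CPM in A375/211, against 109 and 62.6 CPM in A375. Both A375/211 libraries stood above both A375 libraries, and the log2 difference was 1.33 (SE 0.33, edgeR adjusted p = 0.227, DESeq2 adjusted p = 0.00700). EPHA2 (ENSG00000142627, chromosome 1, 16124337 to 16156069, minus strand) had 123 and 121 CPM in A375/211, against 42.9 and 47.0 CPM in A375. Libraries of a line lay close together, and EPHA2 had the smallest edgeR p among the receptors, with a log2 difference of 1.44 (SE 0.16, edgeR adjusted p = 0.0606, DESeq2 adjusted p = 6.93e-09). It passed by edgeR with no filter on low counts (1.45, adjusted p = 0.0404). PDGFRB (ENSG00000113721, chromosome 5, 150113839 to 150155872, minus strand) had 12.9 and 11.8 CPM in A375/211, against 4.42 and 4.66 CPM in A375. Its lines did not overlap either, with a log2 difference of 1.45 (SE 0.21, edgeR adjusted p = 0.0890, DESeq2 adjusted p = 0.000351).

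The other receptors were not called by either tool. KDR (ENSG00000128052, chromosome 4, 55078481 to 55125595, minus strand) had 4.86 and 9.09 CPM in A375/211, against 3.34 and 3.41 CPM in A375 (log2 1.04, SE 0.37, adjusted p = 0.415). FGFR1 (ENSG00000077782, chromosome 8, 38400215 to 38468834, minus strand), alone among the receptors in having both A375/211 libraries lower, had 9.84 and 14.7 CPM in A375/211, against 19.0 and 27.8 CPM in A375 (log2 -0.93, SE 0.31, adjusted p = 0.380). The lines overlapped for the remaining 4. ERBB3 (ENSG00000065361, chromosome 12, 56076799 to 56103505, plus strand) had 299 and 271 CPM in A375/211, against 286 and 174 CPM in A375. MET (ENSG00000105976, chromosome 7, 116672196 to 116798377, plus strand) had 149 and 112 CPM in A375/211, against 135 and 87.3 CPM in A375. For all 4 the A375 libraries lay farther apart than the line means did. NRP1 (ENSG00000099250, chromosome 10, 33177492 to 33336262, minus strand) had 56.6 and 48.8 CPM in A375/211, against 59.6 and 29.5 CPM in A375. EGFR (ENSG00000146648, chromosome 7, 55019017 to 55211628, plus strand) had 8.63 and 9.90 CPM in A375/211, against 6.29 and 10.1 CPM in A375. The log2 differences of these 4 lay between 0.17 and 0.31, with adjusted p from 0.808 to 0.924.

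In BrU-labelled RNA most of the receptors passed. With the 4 chase times matched, 6 of the 9 receptors rose in A375/211 (NRP1, KDR, AXL, MET, EPHA2 and EGFR) and 0 fell, where 13.6% of all 13703 genes tested rose and 12.3% fell. The median log2 difference of the 9 was 1.67, against -0.045 over all genes, and 7 of the 9 were above 0, against 46.3% of all genes. The 7 were higher in A375/211 at all 4 times, and ERBB3 and FGFR1 were lower at all 4. There was 1 library per line and time, so the times stood in for replicates (3 residual degrees of freedom). The whole-table split moved from 47.4% lower among the calls to 58.6% lower when library totals replaced TMM scaling, a shift of -0.10 in the median. Of 9 glycolytic mRNAs, held constant for the slopes below, 5 rose and 0 fell in this comparison. Their median log2 difference was 0.37 in BRIC-seq and -0.028 in RNA-seq. Scaling on them was not run for the line difference.

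NRP1 and KDR, which meet in the VEGF receptor complex, had the largest differences of the 9. NRP1 had 103, 128, 157 and 115 CPM at 0, 1, 3 and 6 h in A375/211, against 6.18, 6.98, 7.59 and 6.23 CPM in A375. Each time point alone gave a ratio between 16.6 and 20.6, and the matched log2 difference was 4.21 (SE 0.11, adjusted p = 1.94e-05), an 18.6-fold rise that was larger than that of 99.2% of genes. KDR had 26.4, 36.9, 46.7 and 34.6 CPM in A375/211, against 2.94, 0.634, 2.35 and 0.603 CPM in A375, where the counts were 10, 3, 17 and 3. The lowest A375/211 value lay above the highest A375 value, and the log2 difference was 4.54 (SE 0.42, adjusted p = 0.00100). Endothelial markers summed to 1.03 to 1.90 CPM in A375/211 and 0.414 to 1.18 CPM in A375 in BRIC-seq, with CDH5, VWF, EMCN and CLDN5 at 0 in all 8 libraries. Over the chase TEK had 9 counts in A375/211 and 0 in A375, TIE1 had 7 in A375/211 and 0 in A375, and PECAM1 had 10 in A375/211 and 12 in A375; the part of such markers in the KDR values was not tested. Exons of NRP1 share 561 bases (4.87%) with a long noncoding RNA on the opposite strand, ENSG00000238258, which had 89 BRIC-seq counts in A375/211 and 14 in A375, against 2403 and 140 for NRP1 itself.

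AXL, MET and EPHA2 rose by smaller steps. AXL had 141, 175, 281 and 537 CPM over the chase in A375/211, against 38.0, 39.3, 61.5 and 92.0 CPM in A375 (log2 2.21, SE 0.12, adjusted p = 0.000180). The gap between the lines was 3.72-fold at 0 h and 5.83-fold at 6 h. MET had 99.2, 186, 238 and 267 CPM in A375/211, against 52.4, 70.6, 68.6 and 46.0 CPM in A375 (log2 1.67, SE 0.25, adjusted p = 0.00584). Its ratio between the lines was 1.89 at 0 h and 5.79 at 6 h. EPHA2 had 47.0, 43.2, 59.1 and 38.2 CPM in A375/211, against 21.5, 26.2, 25.2 and 22.3 CPM in A375 (log2 0.96, SE 0.14, adjusted p = 0.00458). All 4 of its A375/211 values stood above all 4 A375 values.

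Of the ERBB receptors EGFR rose and ERBB3 did not pass. EGFR had 16.6, 28.6, 30.9 and 15.9 CPM in A375/211, against 13.8, 14.2, 12.8 and 6.23 CPM in A375. The counting intervals of the lines overlapped at 0 h, and the ratio between the lines was 2.02 to 2.56 afterwards, with a matched log2 difference of 0.98 (SE 0.21, adjusted p = 0.0196). The EGFR call was lost without both 1 h libraries (adjusted p = 0.0645) or both 3 h libraries (adjusted p = 0.0737). ERBB3 had 213, 218, 229 and 243 CPM in A375/211, against 221, 296, 268 and 320 CPM in A375 (log2 -0.28, SE 0.088, adjusted p = 0.0628). That difference was small beside those of the other receptors, and it passed without both 0 h libraries (-0.32, adjusted p = 0.0496).

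PDGFRB and FGFR1 were thinly counted in BRIC-seq. PDGFRB had 2.18, 2.38, 4.31 and 4.41 CPM in A375/211, against 2.06, 0, 1.38 and 0.804 CPM in A375 (log2 1.76, SE 0.60, adjusted p = 0.0753), and at 1 h in A375, where the count was 0, the exact 95% Poisson upper limit was 0.780 CPM. With 63 counts in A375/211 and 21 in A375 over the chase, the ratio between the lines was 1.06 at 0 h and 5.49 at 6 h. Markers of fibroblasts, a cell type in which PDGFRB is prominent, summed to 27.2 to 215 CPM in A375/211 and 1.18 to 18.1 CPM in A375 in BRIC-seq. In RNA-seq they summed to 16.5 to 17.8 CPM in A375/211 and 23.1 to 58.3 CPM in A375, where COL1A2 averaged 0.377 CPM in A375/211 and 34.1 CPM in A375. Other markers stood higher in A375/211 in RNA-seq, with LUM averaging 12.1 CPM in A375/211 and 4.90 CPM in A375, POSTN 2.94 CPM in A375/211 and 1.13 CPM in A375, and DCN 1.28 CPM in A375/211 and 0.0737 CPM in A375. None of the 5 tested passed by edgeR, 4 had an unadjusted p under 0.05 and DESeq2 called 3. Over all 19258 genes edgeR called 0.379%, 2107 had an unadjusted p under 0.05 and DESeq2 called 3.88%. In BRIC-seq 2 of the 6 were tested, POSTN and LUM, and both rose, where 13.6% of all genes rose. The collagen gene COL1A2 was at 0 in all 4 A375/211 libraries. The part of these markers in the PDGFRB values of either assay was not tested. FGFR1 had 3.81, 3.57, 7.41 and 6.86 CPM in A375/211, against 6.77, 4.02, 12.7 and 22.9 CPM in A375 (log2 -0.94, SE 0.28, adjusted p = 0.0527). It passed when library totals replaced TMM scaling (-1.05, adjusted p = 0.0427), as did ERBB3 (-0.38, adjusted p = 0.0497).

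**Figure D2:**
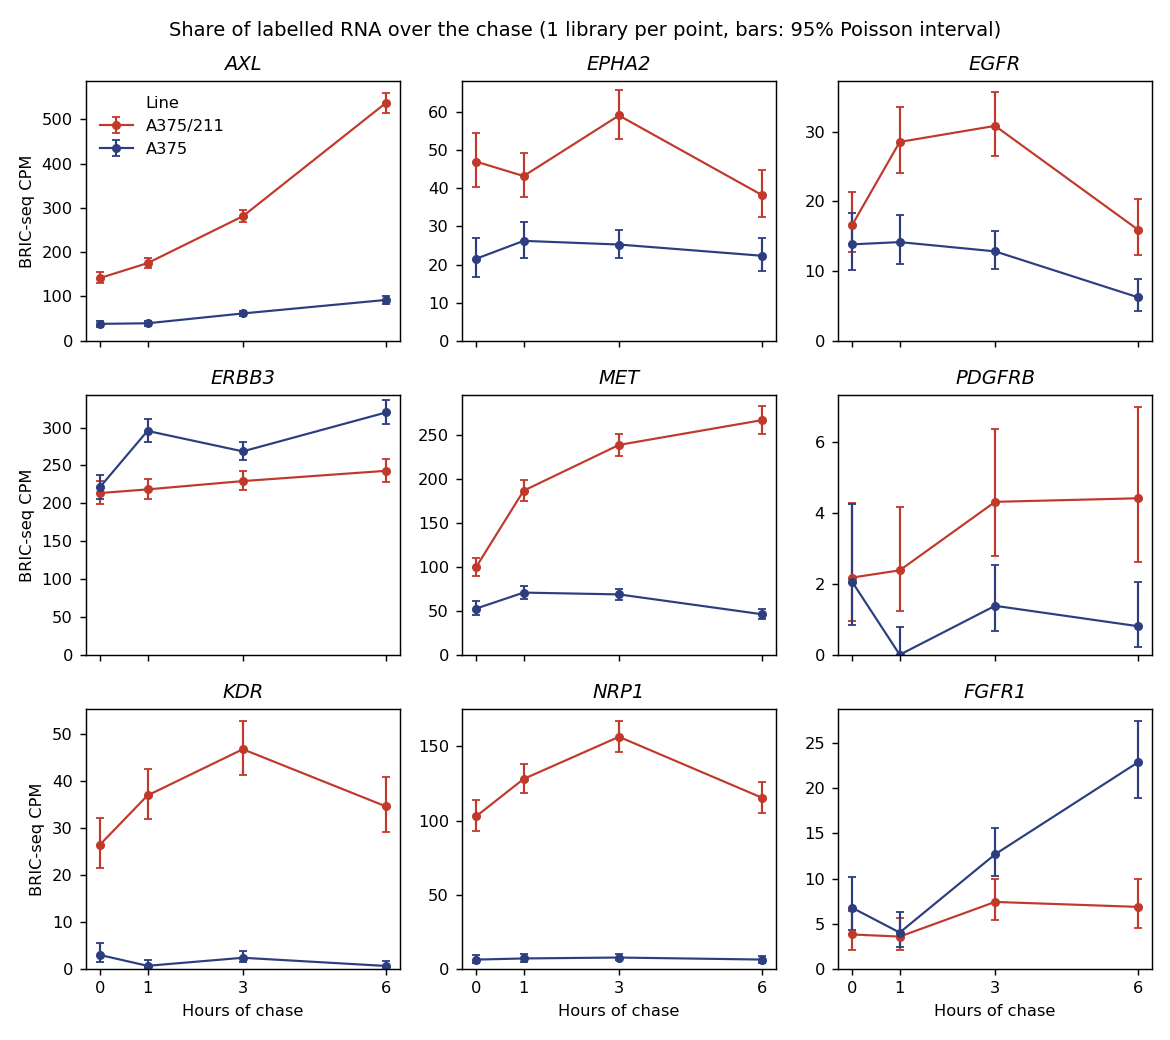
BRIC-seq CPM of 9 receptors against hours of chase, 1 library per point, A375/211 in red and A375 in blue, with bars for the exact 95% Poisson interval of the count. NRP1 stayed between 103 and 157 CPM in A375/211 and between 6.18 and 7.59 CPM in A375, AXL climbed in both lines, and for ERBB3 and FGFR1 the A375 points lay higher at every time.

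Set side by side, the assays placed AXL, EPHA2 and PDGFRB above 0 and FGFR1 below 0 alike, and NRP1 and KDR far apart (plot of line differences). The difference between assays was tested in 1 edgeR fit over all 12 libraries, a test chosen after the data were seen. The sources used here do not say whether both assays drew on the same cultures, so a difference between labelled and total RNA and a difference between cultures cannot be told apart. It passed for 2 receptors, both with a larger line difference in BRIC-seq, where 3.26% of 12677 genes were called in that direction. For NRP1 the line difference was 4.21 in BRIC-seq and 0.24 in RNA-seq, and the joint fit put them 3.99 apart (SE 0.37, adjusted p = 0.00124). For KDR it was 4.54 in BRIC-seq and 1.04 in RNA-seq, 3.56 apart (SE 0.64, adjusted p = 0.0166). The KDR call was lost without the A375/211 RNA-seq library a (3.19, adjusted p = 0.0631). AXL (0.90, adjusted p = 0.138) passed without the A375 RNA-seq library b (1.23, adjusted p = 0.0311), and ERBB3 (-0.56, adjusted p = 0.257) passed without the A375 RNA-seq library a (-0.94, adjusted p = 0.0420).

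The ratio of labelled RNA at 0 h to total RNA was then set against all genes. With 0.5 CPM added to both values, NRP1 had a ratio of 1.94 in A375/211 and 0.148 in A375, where the medians over 12677 genes were 0.772 in A375/211 and 0.769 in A375. The A375/211 value was higher than that of 81.0% of genes and the A375 value higher than that of 12.1%. KDR had 3.60 in A375/211, higher than 92.3% of genes, and 0.889 in A375, higher than 54.8%. For MET the 2 assays differed by 1.46 (SE 0.43, adjusted p = 0.0893 by edgeR and 0.0211 by DESeq2). The remaining receptors, EGFR, EPHA2, PDGFRB and FGFR1, had differences between assays from -0.44 to 0.85 with adjusted p of 0.264 or more. Across all genes the line differences of the assays, which share no library, had a Pearson correlation of 0.408 and a Spearman correlation of 0.245. They had the same sign in 57.8%.

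**Figure D3:**
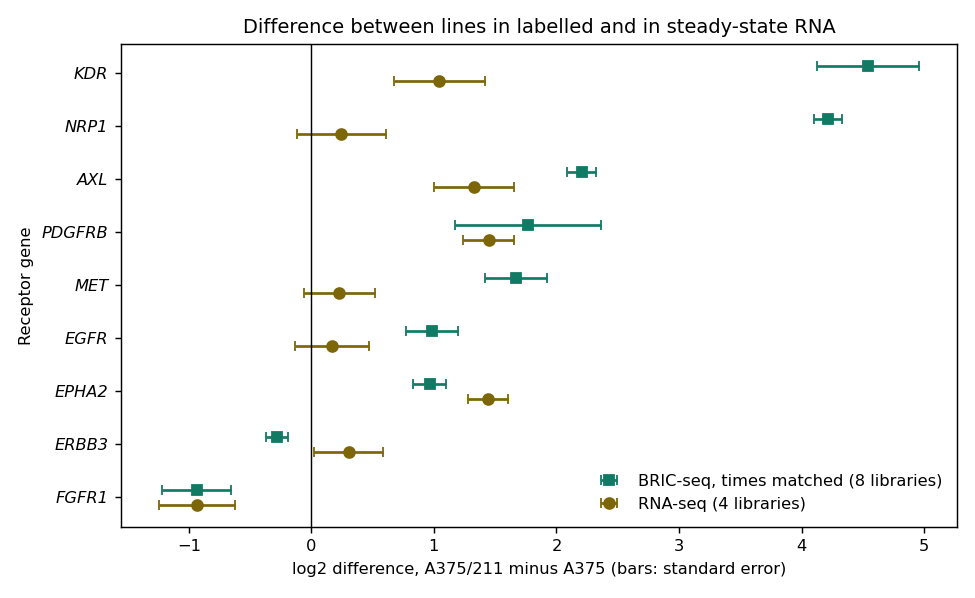
Log2 difference between lines, A375/211 minus A375, of 9 receptors in BRIC-seq with times matched (squares, 8 libraries) and in RNA-seq (circles, 4 libraries), with bars for the standard error. NRP1 at 4.21 and KDR at 4.54 in BRIC-seq stood far from their RNA-seq values of 0.24 and 1.04, whereas FGFR1 was at -0.94 in BRIC-seq and -0.93 in RNA-seq.

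The chase slope gives how the share of a transcript in labelled RNA changed per hour. It is given on the log2 scale per hour, against the TMM-scaled labelled pool, so a positive slope means a slower loss than the scaled pool and not an increase in molecules. Over both lines 2 of the 9 receptors had slopes above 0 that passed, AXL and FGFR1, and 0 had passing slopes below 0, where 29.9% of all genes passed above 0 and 34.4% below. AXL had a mean slope of 0.28 (SE 0.028, adjusted p = 7.51e-05), and FGFR1 had a mean slope of 0.28 (SE 0.072, adjusted p = 0.00887). The FGFR1 call was lost without the A375 6 h library (0.23, adjusted p = 0.0909). The other 7 had slopes between -0.12 (EGFR) and 0.085 (PDGFRB).

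By line, AXL passed in A375/211 (0.32, SE 0.034, adjusted p = 0.000877) and in A375 (0.23, SE 0.035, adjusted p = 0.00304). Its CPM at 6 h was 3.80 times that at 0 h in A375/211 and 2.42 times in A375. It was the 1 receptor of 9 that passed in A375/211, where 21.9% of all genes passed above 0. In A375, AXL and FGFR1 passed (FGFR1 0.36, SE 0.093, adjusted p = 0.0177), where 23.0% of all genes did. Each AXL call was lost when that line's 6 h library was left out (0.31, adjusted p = 0.0876, in A375/211 and 0.26, adjusted p = 0.113, in A375). The FGFR1 call in A375 was lost without that line's 1 h library (0.29, adjusted p = 0.0502) or its 6 h library (0.39, adjusted p = 0.253), and without the 6 h library of a line no gene in the whole table passed there.

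The slopes of the lines were then compared. The test of the slope difference passed for 0 of 9 receptors and for 0% of all genes by edgeR. At an unadjusted p under 0.05 there were 1 of the 9 receptors and 527 of 13703 genes, and DESeq2 called 14 genes and 0 receptors. MET came nearest, with a slope of 0.20 (SE 0.071) in A375/211 and -0.056 (SE 0.074) in A375, a difference of 0.25 (SE 0.10, unadjusted p = 0.0434, adjusted p = 1). The difference was 0.097 (SE 0.050) for AXL, 0.025 (SE 0.089) for NRP1 and -0.023 (SE 0.089) for EPHA2, all with an adjusted p of 1. Among the thinly counted receptors it was 0.27 (SE 0.21) for KDR, 0.26 (SE 0.30) for PDGFRB and -0.19 (SE 0.14) for FGFR1.

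**Figure D4:**
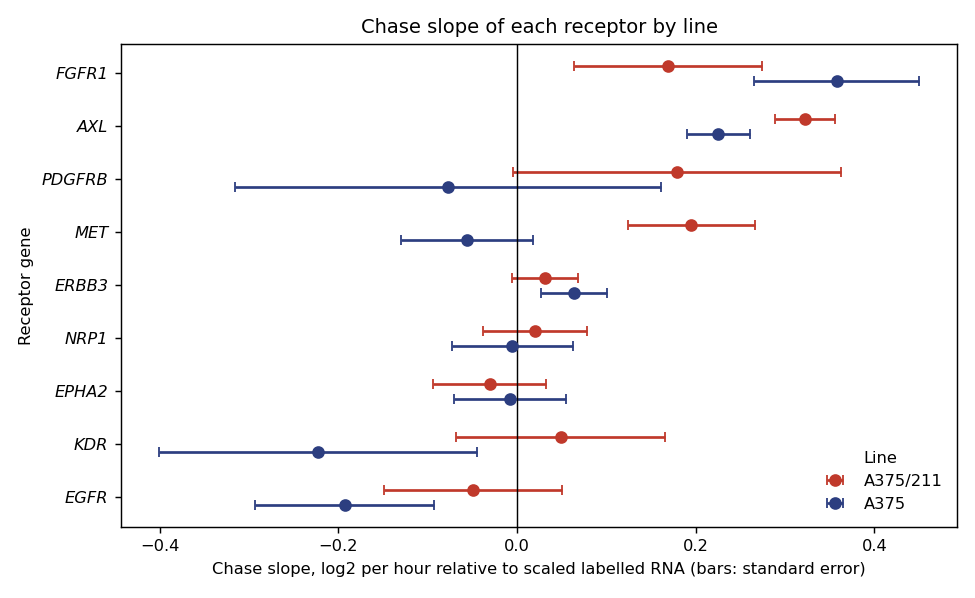
Chase slope of 9 receptors on the log2 scale per hour, against the scaled labelled RNA, A375/211 in red and A375 in blue, with bars for the standard error. AXL lay at 0.32 in A375/211 and 0.23 in A375, MET at 0.20 in A375/211 and -0.056 in A375, and NRP1, EPHA2 and ERBB3 lay near 0 in both lines.

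The sign of a slope depended on the scaling. With library totals in place of TMM the median slope of all genes shifted by -0.17, AXL was the only receptor of the 9 that passed above 0 and 4 passed below 0. Of all 13703 genes 1846 passed above 0 and 7269 below with library totals. With 9 glycolytic mRNAs held constant the median shifted by -0.48 and all 9 receptors passed below 0, AXL at -0.20 and FGFR1 at -0.20 being the least negative. Most genes did the same under glycolytic scaling, with 12098 of 13703 passing below 0 and 8 above.

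Other genes of the receptor network gave the setting, from lists written with general knowledge and with earlier results of these data known. In RNA-seq none passed by edgeR among the 30 other receptor tyrosine kinases, 34 ligands, 11 co-receptors, 24 adaptors and effectors and 18 negative regulators tested. At an unadjusted p under 0.05 there were 7 of the receptor kinases, 7 ligands, 5 co-receptors, 4 adaptors and effectors and 4 negative regulators, and DESeq2 called 3, 4, 1, 2 and 1 of them. Over all 19258 genes 2107 had such a p and DESeq2 called 748 (3.88%). The ligands with the smallest p were HGF, the ligand of MET, with 211 counts in A375/211 and 3 in A375 (adjusted p = 0.0745), and HBEGF, a ligand of EGFR, at a log2 difference of 1.44 (adjusted p = 0.108). In BRIC-seq HGF fell (adjusted p = 0.00174), with 267 counts in A375/211 and 2332 in A375.

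In BRIC-seq, 9 of 19 ligands tested rose in A375/211 and 3 fell, with a median log2 difference of 0.64 against -0.045 over all genes, where 13.6% of all genes rose and 12.3% fell. Semaphorins that bind neuropilins were among those that rose, SEMA3A by 2.50 (SE 0.12), SEMA3C by 1.81 (SE 0.14) and SEMA3D by 2.42 (SE 0.25) on the log2 scale, and TGFA, a ligand of EGFR, fell by 0.83 (SE 0.078). These semaphorins did not rise in RNA-seq, where their lines overlapped. SEMA3A averaged 56.0 CPM in A375/211 and 64.5 CPM in A375. SEMA3C averaged 79.9 CPM in A375/211 and 116 CPM in A375, and SEMA3D 3.73 CPM in A375/211 and 9.26 CPM in A375. TGFA averaged 753 CPM in A375/211 and 746 CPM in A375 in RNA-seq, with overlapping lines. Of 21 other receptor kinases in BRIC-seq 3 rose and 7 fell, with a median of -0.12. FLT1, the other main VEGF receptor, fell by 2.51 (SE 0.35), EPHB4 by 1.47 (SE 0.28) and EPHA3 by 0.59 (SE 0.073). NTRK3 had 0 counts in A375/211 against 89 in A375. In RNA-seq FLT1 averaged 15.9 CPM in A375/211 and 23.5 CPM in A375, with overlapping lines. EPHB4 averaged 42.7 CPM in A375/211 and 47.7 CPM in A375, and EPHA3 210 CPM in A375/211 and 320 CPM in A375. NTRK3 had 1 RNA-seq count in A375/211 and 6 in A375. Of 11 co-receptors 2 rose (SDC4 by 1.90, SE 0.13, and NRP2 by 0.55, SE 0.074) and 1 fell (SDC1, by 0.91, SE 0.24). In RNA-seq SDC1 stood higher, at 23.5 CPM in A375/211 and 11.2 CPM in A375 (log2 1.07, adjusted p = 0.307). SDC4 stood higher there as well, at 116 CPM in A375/211 and 64.5 CPM in A375 (log2 0.85, edgeR adjusted p = 0.186). Of 21 adaptors and effectors 6 rose and 1 fell, with RASA1 at 1.94 (SE 0.16), GAB2 at 1.93 (SE 0.17), IRS2 at 1.04 (SE 0.090) and PTPN11, the phosphatase SHP2, at 0.67 (SE 0.069). GAB2 stood lower in RNA-seq, at 11.7 CPM in A375/211 and 32.0 CPM in A375 (log2 -1.45, adjusted p = 0.177). The lines overlapped in RNA-seq for RASA1, at 56.8 CPM in A375/211 and 52.1 CPM in A375. They also overlapped for IRS2, at 116 CPM in A375/211 and 118 CPM in A375. PTPN11 averaged 370 CPM in A375/211 and 318 CPM in A375. Of 17 negative regulators 5 rose in BRIC-seq, among them CBL, which ubiquitinates active receptors, by 0.51 (SE 0.094), and 3 fell, among them ERRFI1, an inhibitor of EGFR, by 0.82 (SE 0.079). ERRFI1 stood lower in RNA-seq too, at 177 CPM in A375/211 and 462 CPM in A375 (log2 -1.38, edgeR adjusted p = 0.174). CBL averaged 77.1 CPM in A375/211 and 73.5 CPM in A375 in RNA-seq, with overlapping lines.

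Mean chase slopes over both lines were counted in the same lists, where 29.9% of all genes passed above 0 and 34.4% below. Among co-receptors 7 of 11 passed above 0 and 0 below, with a median of 0.32 against -0.038 over all genes, as in PLXND1 (0.40, SE 0.044) and PLXNA1 (0.41, SE 0.051), the semaphorin receptors that partner neuropilins. Among negative regulators 2 of 17 passed above 0 and 11 below, with a median of -0.25, as in ERRFI1 (-0.56, SE 0.052), the ubiquitin ligase CBLB (-0.58, SE 0.080) and SOCS5 (-0.77, SE 0.11). Among adaptors and effectors 3 of 21 passed above 0 and 13 below, with a median of -0.22, as in CRKL (-0.61, SE 0.071) and GAB1 (-0.47, SE 0.053). The other receptor kinases had 9 of 21 above 0 and 5 below, as in ERBB2 (0.38, SE 0.058) and the AXL relative TYRO3 (0.31, SE 0.044) on 1 side and EPHA4 (-0.35, SE 0.062) on the other. The 9 receptors, with a median of 0.047, had 2 above 0 and 0 below.

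AXL, EPHA2 and ERBB3 were the 3 receptors with the highest per-length RNA-seq level averaged over both lines (in A375 MET stood above EPHA2). The genes most like them were found by the root mean squared difference of log2 CPM over 12 libraries, each centred within its assay, among 12010 genes. For AXL they were MUC5B (0.24), TFPI2 (0.24) and LPCAT2 (0.31), where the median over all genes was 1.25. The line differences of TFPI2 were 0.86 in RNA-seq and 2.51 in BRIC-seq, beside 1.33 and 2.21 for AXL. As TFPI2 was chosen for likeness over the same libraries, nearness of these values follows from the choice. For EPHA2 they were LRRK2 (0.19), DENND5B (0.22) and MPP3 (0.23), with a median of 0.85. For ERBB3 they were YTHDC2 (0.13), RALGAPA1 (0.16) and DST (0.16), with a median of 0.63.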

How the data were processed

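The authors deposited whole-number read counts per gene with no normalization, 1 table for 4 RNA-seq and 1 for 8 BRIC-seq libraries. The submitters' processing notes name HISAT2 2.1.0 and StringTie and give the build hg19, whereas the series' design text gives hg38, so coordinates are those of GENCODE 44 (hg38), matched by Ensembl ID. Counting strand is not given in the sources used here, so reads of overlapping antisense genes cannot be told apart. Of 60675 IDs, 56558 (93.2%) had a symbol. A BRIC-seq row that names no gene (0.000108% to 0.00122% of counts) was left out.

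Counts were tested with edgeR 4.0.16 in R 4.3.3 (quasi-likelihood F test, TMM, filterByExpr by line with minimum count 10 and minimum total 15, Benjamini-Hochberg over all genes tested, adjusted p under 0.05) and, as an alternative, DESeq2 1.42.0. The scripts were tested on simulated data. CPM used TMM-scaled library sizes, and exact Poisson intervals (95%) and floors of 3 counts cover counting error only. RNA-seq used 2 libraries per line. BRIC-seq fits used the 8 libraries, with time as a factor for the line difference, hours with the line for the mean slope, and a slope per line for line slopes and their difference. Alternatives were scaling, the low-count filter, DESeq2, the a and b letters as a block and leaving out each library. Replicates a and b were distinct (chi-square per degree of freedom 58.0 in A375/211 and 117 in A375). No label states separate cultures, so the spread behind each p-value is that of these libraries and could be technical.

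The receptors and lists were chosen with earlier results of these data known, and the fit across assays was added after the data were seen. From each list the text names up to 4 passing genes with the smallest p, or up to 2 where none passed. HGF in BRIC-seq was named because of its RNA-seq value.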

Additional observations from a re-analysis of the deposited data

Results flagged for a closer look

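NRP1 and KDR stood out because their line difference, A375/211 minus A375, was not the same in the 2 assays by the test of the difference itself. For NRP1 the log2 line difference was 3.99 larger in BRIC-seq than in RNA-seq (SE 0.37, edgeR adjusted p = 0.00124), and A375/211 was higher at 4 of 4 chase times but overlapped A375 in RNA-seq. It kept its call when each of the 12 libraries was left out in turn, with values from 3.43 to 4.40. For KDR the difference was 3.56 (SE 0.64, adjusted p = 0.0166), with A375/211 higher at 4 of 4 chase times and in 2 of 2 RNA-seq libraries. KDR rests on 33 BRIC-seq counts in A375 in all, and its value lay between 3.19 and 4.06 when each library was left out, the lowest of these, without the A375/211 RNA-seq library a, having an adjusted p of 0.0631. Whether the assays used the same cultures is not given in the sources used here, and a cause was not tested for either.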

How the results depend on the processing

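RNA-seq calls numbered 73 genes, 748 with DESeq2, 237 with no filter on low counts and 192 with the letters a and b as a replicate block; receptors called were 0, 3, 1 and 1 in the same order, the 1 being EPHA2 (block 1.44, adjusted p = 0.0480). The block rests on letters alone, with a correlation of deviations of 0.239 from 2 pairs.

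Without 1 library at a time, RNA-seq calls ranged from 0 to 15, calls of the slope in A375/211 from 0 to 5870 and in A375 from 0 to 6770, calls between assays from 268 to 866, and receptors called from 0 to 1 (A375/211 slope), 0 to 2 (A375 slope) and 1 to 3 (between assays). Without the libraries of 1 time, the BRIC-seq line difference called 1736 to 2821 genes, 2038 without 1 h. DESeq2 called 1331 genes between assays and 14 slope differences, and no filter gave 1 slope difference. By the longest transcript, 3 receptors kept their place in the RNA-seq per-length order of both lines.

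For mean slopes, EPHA2 was 0.00640 with RLE scaling and 0.00603 with DESeq2. Library totals called 5 receptors (1846 genes above 0 and 7269 below), with PDGFRB at -0.083, MET -0.088, ERBB3 -0.12 and NRP1 -0.16. Glycolytic mRNAs held constant called 9 receptors (8 genes above 0 and 12098 below), with AXL at -0.20, PDGFRB -0.39, MET -0.41, ERBB3 -0.44, NRP1 -0.47 and FGFR1 -0.20. In A375/211, RLE and DESeq2 called 2 receptors and totals 3. Of all 13703 genes the main edgeR fit called 5877 there and DESeq2 5876, and whole-table counts with RLE and totals are not given here. Totals put PDGFRB at -0.000997, ERBB3 -0.15, KDR -0.13, NRP1 -0.16 and FGFR1 -0.012. Glycolytic scaling called 8 receptors and 10945 genes, with AXL at -0.15, PDGFRB -0.30, MET -0.29, ERBB3 -0.45, KDR -0.43, NRP1 -0.46 and FGFR1 -0.30. In A375, NRP1 was 0.020 with RLE, 0.020 with DESeq2 and 0.019 with no filter, and EPHA2 was 0.018, 0.017 and 0.016. Totals called 1 receptor in A375, with ERBB3 at -0.089, where the main edgeR fit called 6465 of 13703 genes. The whole-table count with totals is not given here for A375 either. Glycolytic scaling called 7 receptors and 10849 genes, with AXL at -0.26, ERBB3 -0.43 and FGFR1 -0.12. The NRP1 slope difference was -0.00443 with totals.

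Signs turned without 1 library within these ranges. In RNA-seq they were EGFR -0.13 to 0.56, MET -0.048 to 0.57, ERBB3 -0.00300 to 0.70 and NRP1 -0.17 to 0.83. Mean slopes were EPHA2 -0.039 to 0.038, KDR -0.10 to 0.053 and NRP1 -0.023 to 0.061. Slopes in A375/211 were EGFR -0.18 to 0.23, EPHA2 -0.054 to 0.11, KDR -0.033 to 0.24 and NRP1 -0.043 to 0.17. Slopes in A375 were EPHA2 -0.050 to 0.073, KDR -0.33 to 0.037, MET -0.13 to 0.12, NRP1 -0.040 to 0.10 and PDGFRB -0.22 to 0.26. Slope differences were EGFR -0.015 to 0.40, EPHA2 -0.097 to 0.086, ERBB3 -0.077 to 0.00504, NRP1 -0.078 to 0.15 and PDGFRB -0.082 to 0.40. FGFR1 between assays was -0.30 to 0.38. Of 738 receptor values under alternatives, 624 kept direction and call, 31 newly passed, 11 no longer passed and 72 turned sign. The turns under library totals and glycolytic scaling follow from a shift of all slopes by about 1 amount (median -0.17 and -0.48). The cause of the other moves was not tested. BRIC-seq depth limits PDGFRB, FGFR1 and KDR in A375.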
